A study of Mus musculus with 4 samples.

Results

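The 7 genes described here, Alox5, Alox5ap, Ltc4s, Lta4h, Ptgs1, Ptgs2 and Hpgds, encode the enzymes of leukotriene and prostaglandin synthesis and a helper protein of the pathway. They were chosen by name, not by a measured value, and all 7 are listed among the 32285 genes of the count files. Their levels were read in 22258 single cells of 4 libraries, labelled as lung macrophages and sorted from mouse lung, with some cells of other types among them.

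Leukotrienes and prostaglandins are lipid mediators made from arachidonic acid, which phospholipases release from membranes. In the leukotriene branch, 5-lipoxygenase (Alox5) takes up arachidonic acid with the help of its activating protein (Alox5ap) and makes an unstable epoxide, which leukotriene A4 hydrolase (Lta4h) turns into leukotriene B4, an attractant of leukocytes. Leukotriene C4 synthase (Ltc4s) instead joins the epoxide to glutathione, giving the peptide leukotrienes that constrict airways. In the prostaglandin branch, the cyclooxygenases Ptgs1, present in many resting cells, and Ptgs2, induced by inflammatory signals, make prostaglandin H2, and hematopoietic prostaglandin D synthase (Hpgds) converts it into prostaglandin D2. Macrophages are a known source of both kinds of mediator in the lung.

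The study compared lung macrophages of female MMTV-HER2 mice, in which a mammary tumour virus promoter drives the HER2 oncogene in the mammary gland, with those of wildtype FVB mice. Mice of 16 weeks made up the early stage, at which the labels speak of early lesions, and mice of 32 weeks the late stage, at which they speak of palpable tumours. Collagenase-digested lungs were sorted by FACS and run on a droplet assay that tags each RNA molecule with a unique molecular identifier (UMI). Littermates were assigned to the groups at random, and each of the 4 groups is 1 library. The strain entry names both genotypes for every sample, so the groups rest on the sample titles. The number of mice per library and the antibodies of the sort were not given in the sources used here, so p-values measure only the spread between these libraries.

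Libraries held 28786682 to 39228655 UMIs, and 5126 to 6554 cells per library were kept, with 1000 UMIs or more, 500 genes or more and no more than 10% of UMIs from mitochondrial genes. Cells were called alveolar macrophages (AM) where Chil3, Ear1, Ear2, Fabp1, Lpl and Plet1 made up at least 0.4% of UMIs and exceeded the C1q genes, and interstitial macrophages (IM) where C1qa, C1qb and C1qc together gave at least 5 UMIs and exceeded those AM genes. This gave 4833, 4413, 4245 and 5702 AM cells and 330, 455, 633 and 661 IM cells in wildtype early, then HER2 early, then wildtype late, then HER2 late, the order kept wherever 4 values follow. The 10 markers of alveolar macrophages summed to 17271 to 20474 counts per 1000000 UMIs of the class (CPM) in AM cells and to 574 to 1017 CPM in IM cells, and the 10 of interstitial macrophages to 373 to 643 and to 23820 to 27449 CPM. Wildtype early stood apart among IM cells, as 128 of its 330 held at least 3 UMIs of 5 T cell markers (Cd3d, Cd3e, Cd3g, Trac, Trbc2), against 20 of 455, 27 of 633 and 16 of 661. These markers summed to 1466 CPM in its IM cells and to 48.1 to 181 CPM in those of the other libraries. IM values of the 7 genes are therefore also given without such cells where that matters. For other genes they are not given. Pairs of libraries shared 1 to 13 cell barcodes.

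In GENCODE M21 on GRCm38, the mm10 build of the count files, Alox5 lies on chromosome 6 (116410077 to 116461178, minus strand), Alox5ap on chromosome 5 (149264767 to 149288153, plus), Ltc4s on chromosome 11 (50236461 to 50238616, minus) and Lta4h on chromosome 10 (93453411 to 93484875, plus). Ptgs1 lies on chromosome 2 (36230426 to 36252272, plus), Ptgs2 on chromosome 1 (150100031 to 150108227, plus) and Hpgds on chromosome 6 (65117293 to 65144908, minus). Genes on the other strand overlap Alox5ap (n-R5s180 and Gm19719), Ltc4s (Gm26542), Ptgs1 (Gm43621) and Hpgds (Gm17147), and the strand setting of the counting was not given in the sources used here. No other gene's transcripts matched the last 300 transcribed bases of a member at 95% identity over 90 bases.

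Promoters of 6 members were found in RefSeq's table for GRCm38.p6, the exception being Alox5ap. The 250 bases before the start are shown for Ltc4s, Hpgds and Ptgs1, the genes that differ most clearly between the macrophage classes, 5′ to 3′ on the gene's own strand. Capitals mark GAGGAAGT, a sequence of the type bound by the macrophage Ets factor PU.1, searched on both strands.
Ltc4s, chr11:50238533-50238782, minus strand: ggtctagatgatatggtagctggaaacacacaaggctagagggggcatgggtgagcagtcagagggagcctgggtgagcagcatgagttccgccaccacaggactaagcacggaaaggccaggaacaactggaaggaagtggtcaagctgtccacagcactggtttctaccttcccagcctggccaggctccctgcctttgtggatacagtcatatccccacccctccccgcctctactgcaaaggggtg
Hpgds, chr6:65144731-65144980, minus strand: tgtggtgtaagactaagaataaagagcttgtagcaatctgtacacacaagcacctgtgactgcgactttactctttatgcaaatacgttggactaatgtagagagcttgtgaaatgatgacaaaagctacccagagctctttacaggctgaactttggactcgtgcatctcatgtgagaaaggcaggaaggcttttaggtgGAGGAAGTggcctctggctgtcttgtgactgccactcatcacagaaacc
Ptgs1, chr2:36230176-36230425, plus strand: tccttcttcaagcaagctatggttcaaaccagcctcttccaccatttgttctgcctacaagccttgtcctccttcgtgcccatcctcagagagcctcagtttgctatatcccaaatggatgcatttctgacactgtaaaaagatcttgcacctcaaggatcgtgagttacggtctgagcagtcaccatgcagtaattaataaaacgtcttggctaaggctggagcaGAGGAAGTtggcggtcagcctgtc
The RefSeq starts of Ltc4s and Hpgds lie inside the GENCODE genes given above, so that part of both stretches, the motif of Hpgds included, falls within those genes. Distances are counted from the RefSeq start. The motif stood 42 to 49 bases before the start of Hpgds and 17 to 24 before that of Ptgs1, in both on the gene's strand, and these were the 2 of 6 members that held it. It was present in 802 of 32851 promoters (2.44%). The Sp1 box GGGCGG, which does not overlap it, was found at Alox5 and Ptgs2 and in 32.7% of promoters. The motifs were chosen after the sequences had been read, and a match describes letters, not binding. GAGGAAGT was searched as an exact string, and the Ltc4s stretch holds the near match aaggaagt, which was not marked.

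**Figure D1:**
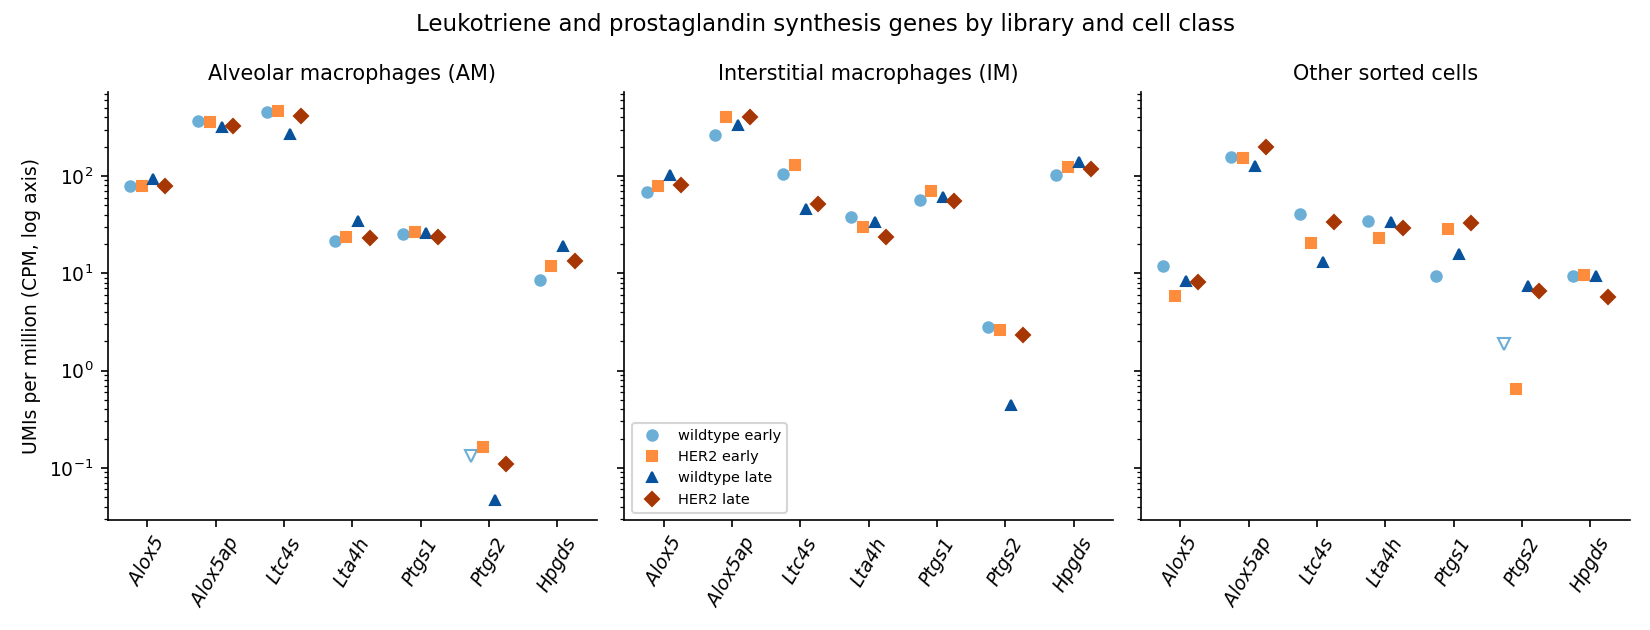
CPM (log axis) of the 7 genes in AM cells, IM cells and the other sorted cells, 1 point per library, with open triangles at the limit of 3 UMIs for libraries with a count of 0. Ltc4s is high in AM cells, Hpgds and Ptgs1 are high in IM cells, and Ptgs2 is near 0 in AM cells.

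Single members differed between the macrophage classes, in both directions. Ltc4s was higher in AM cells, whereas Hpgds, Ptgs1 and Ptgs2 were higher in IM cells, in all 4 libraries. For Alox5, Alox5ap and Lta4h, which feed or compete with Ltc4s, the CPM of both classes overlapped and no direction held in all 4 libraries. In edgeR's quasi-likelihood test, with the library as a block and TMM scaling, 5 of 7 members passed an adjusted p of 0.05, against a background of 63.8% of 12861 genes (31.1% higher and 32.7% lower in AM cells), so the count itself lies near the background and says nothing particular of the pathway. The members' median was 0.00 on the log2 scale and that of all genes was -0.03. Without TMM scaling the median of all genes moved to -0.32, so a gene near 0 can take either sign. CPM and their ratios carry no TMM scaling, whereas the log2 differences between the classes do. The RNA Gm42418 alone made up 16.5 to 19.6% of AM UMIs and 3.74 to 6.18% of IM UMIs, all counted in the CPM totals.

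Ltc4s had 458, 461, 269 and 415 CPM in AM cells and 105, 130, 45.9 and 51.2 CPM in IM cells, from 10462, 8401, 5809 and 11445 UMIs and from 261, 302, 104 and 198 UMIs. The lowest AM value, in wildtype late, exceeded the highest IM value. The AM level was 4.35 times the IM level in wildtype early (95% counting interval 3.85 to 4.94), 3.54 times in HER2 early (3.15 to 3.98), 5.86 times in wildtype late (4.83 to 7.19) and 8.10 times in HER2 late (7.04 to 9.37). The log2 difference was 2.66 (SE 0.17, edgeR adjusted p = 5.7e-07). Intervals here and below cover counting error only. With every cell thinned to 2000 UMIs, a Ltc4s UMI was seen in 54.9, 56.1, 39.8 and 52.3% of AM cells and 10.2, 14.8, 4.70 and 7.30% of IM cells. Without thinning the shares were 75.7, 72.1, 65.6 and 72.6% of AM cells, 23.6, 24.8, 7.42 and 16.3% of IM cells, and 6.59, 1.05, 1.16 and 9.09% of sorted cells with 3 or more UMIs of T or B cell markers, which should lack the gene. Median depths were 4309, 3728, 4752 and 4370 UMIs in AM cells, 6440, 4502, 3219 and 5234 in IM cells and 3282, 2981, 1882 and 3817 in the lymphocyte-like cells. Free RNA, estimated from barcodes of 10 to 100 UMIs, would give 6.28 to 15.9 of the Ltc4s CPM in IM cells, and after its subtraction IM cells kept 96.8, 126, 36.4 and 36.3 CPM. Thinning left out 171 to 490 AM cells and 7 to 101 IM cells per library.

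Hpgds showed the opposite pattern. It had 8.49, 11.9, 18.9 and 13.5 CPM in AM cells and 102, 124, 140 and 119 CPM in IM cells. The groups of libraries did not overlap, and IM cells were 12, 10.5, 7.40 and 8.80 times higher (counting intervals from 6.37 to 14.6). The log2 difference of AM over IM was -2.94 (SE 0.11, edgeR adjusted p = 1.8e-08). At 2000 UMIs a cell, 13.9, 23.6, 24.8 and 21.0% of IM cells and 1.36, 1.89, 2.92 and 2.31% of AM cells held a Hpgds UMI, whereas none of 127, 73, 42 and 39 lymphocyte-like cells did, which allows up to 2.36, 4.11, 7.14 and 7.69%. Without thinning the AM shares were 3.50, 4.35, 7.70 and 5.42%, the IM shares 41.5, 39.6, 34.4 and 44.2% and the lymphocyte-like shares 1.80, 2.11, 1.16 and 2.27%. Free RNA would give 0.302 to 0.482 CPM of Hpgds in AM cells. Mast cells also make prostaglandin D2, and their 8 markers summed to 0.403 to 2.59 CPM in IM cells, with Cpa3, Mcpt8, Ms4a2, Mcpt4, Tpsb2 and Cma1 at 0. The 4 eosinophil markers summed to at most 0.442 CPM there, with Prg2, Epx and Il5ra at 0. The part of either cell type in the Hpgds level was not tested beyond these values.

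Ptgs1, the constitutive cyclooxygenase, had 25.5, 26.3, 25.8 and 23.5 CPM in AM cells and 56.0, 70.8, 61.4 and 54.8 CPM in IM cells. The AM values lay within a narrow range and below every IM value. IM cells were 2.20, 2.69, 2.38 and 2.33 times higher, and the log2 difference of AM over IM was -0.97 (SE 0.09, edgeR adjusted p = 1.2e-05).

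Ptgs2, the inducible cyclooxygenase, was close to absent from AM cells, with 0, 3, 1 and 3 UMIs among 22860512, 18226829, 21563827 and 27573921. The count of 0 in wildtype early allows up to 0.131 CPM. IM cells gave 7, 6, 1 and 9 UMIs, or 2.82, 2.59, 0.442 and 2.33 CPM, from 3, 3, 1 and 5 cells. The IM level was 15.7 times the AM level in HER2 early (counting interval 3.36 to 97.2) and 21.4 times in HER2 late (5.34 to 123), and 9.53 times in wildtype late with an interval from 0.121 to 748. The class difference passed the test (edgeR adjusted p = 4.0e-04), on these few UMIs. The richest IM cell held 4, 2, 1 and 5 of them, whereas the intervals treat UMIs as independent counts.

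Alox5, Alox5ap and Lta4h did not separate the classes in the same way. Alox5 had 78.2, 78.9, 92.8 and 79.7 CPM in AM cells and 68.1, 78.5, 103 and 81.7 CPM in IM cells, which overlap. Its log2 difference of 0.29 (SE 0.10, edgeR adjusted p = 0.022) did not hold across settings. It was 0.00 with library totals in place of TMM (edgeR adjusted p = 1.00) and 0.19 without cells of 3 or more T cell marker UMIs (edgeR adjusted p = 0.077). The call was also lost in DESeq2 (adjusted p = 0.062) and without wildtype early (edgeR adjusted p = 0.073), HER2 early (0.063) or HER2 late (0.069). Alox5ap had 363, 358, 321 and 326 CPM in AM cells and 263, 400, 337 and 402 CPM in IM cells. By CPM, AM cells were above IM cells in wildtype early and below them in the other 3 libraries. The log2 difference with TMM was 0.27 (SE 0.13, edgeR adjusted p = 0.097), and without TMM it was -0.02. Lta4h had 21.6, 23.5, 34.2 and 23.1 CPM in AM cells and 37.9, 29.8, 34.0 and 23.5 CPM in IM cells (log2 difference 0.00, SE 0.13, edgeR adjusted p = 0.99). In wildtype early its AM level was 0.570 times the IM level (counting interval 0.456 to 0.719), beside that library's T cell markers. Without cells of 3 or more T cell marker UMIs Lta4h had 28.7 CPM in IM cells of wildtype early.

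**Figure D2:**
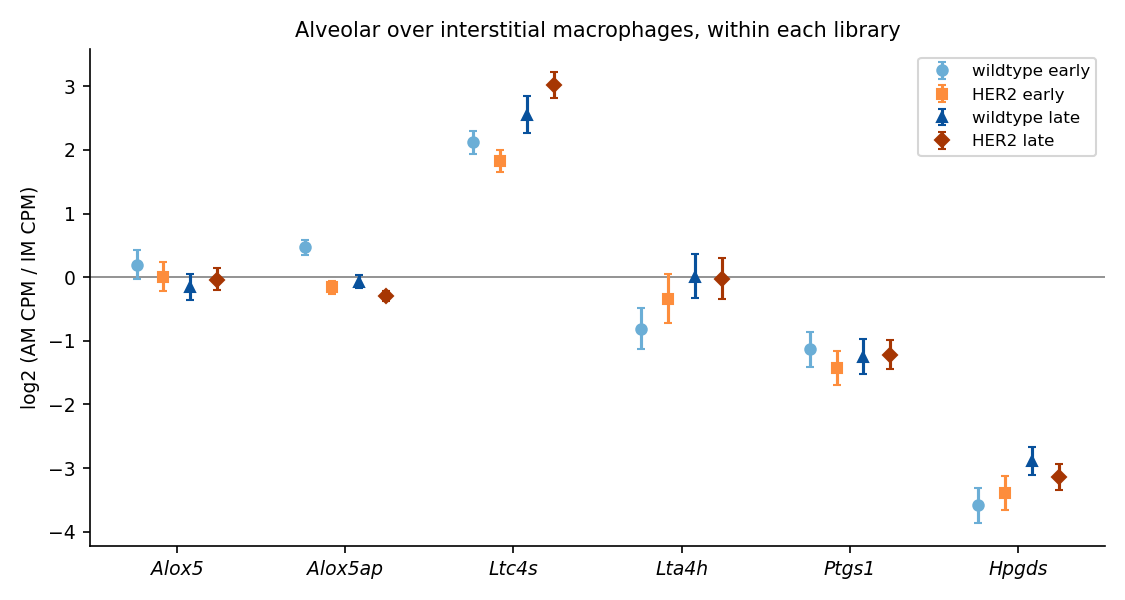
log2 of AM CPM over IM CPM, without TMM scaling, for 6 genes within each of the 4 libraries, with 95% counting intervals. Ltc4s lies above 0 and Hpgds and Ptgs1 below 0 in all 4 libraries, whereas Alox5, Alox5ap and Lta4h lie on both sides of 0 or near it, with Lta4h below and Alox5ap above 0 in wildtype early. Ptgs2, with 0 to 3 UMIs in AM cells, is not drawn.

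Summed over all cells of a class, the balance between the enzymes at the branch of the leukotriene pathway differed between the classes. For each Lta4h UMI, AM cells held 21.2, 19.6, 7.88 and 18 Ltc4s UMIs and IM cells held 2.78, 4.38, 1.35 and 2.18. The value of wildtype late (95% interval 7.30 to 8.52) was the lowest in AM cells. These are ratios of UMIs and can be compared between samples, not read as ratios of transcripts or enzymes. For each Ltc4s UMI, AM cells held 0.0185, 0.0257, 0.0701 and 0.0326 Hpgds UMIs and IM cells held 0.969, 0.954, 3.04 and 2.32.

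Within IM cells Ltc4s was unevenly spread. The 3 richest cells held 29.9, 15.9, 26.0 and 19.7% of its IM UMIs, and 78, 113, 47 and 108 cells held at least 1. A split by Folr2 and Fcna, markers of a subset of tissue macrophages, was chosen after values had been seen and is a description. Cells with at least 0.05% of UMIs from these 2 genes, 37, 54, 40 and 19 in number, had 533, 606, 522 and 610 Ltc4s CPM, and the other IM cells had 41.7, 52.7, 15.5 and 34.9 CPM. The first side lay above the second in every library. By CPM it also lay above the 269 to 461 CPM of AM cells. In wildtype early, however, its counting interval (456 to 619) contained that library's AM value of 458 CPM. Gm42418 takes a larger share of the AM totals, and the order without it was not tested. It held 171, 197, 71 and 67 Ltc4s UMIs beside 22, 15, 9 and 5 of Lta4h. The other IM cells held 90, 105, 33 and 131 Ltc4s UMIs beside 72, 54, 68 and 86 of Lta4h. The ratio of Ltc4s to Lta4h over all IM cells therefore averages over unlike sides. Restricted to IM cells whose AM genes made up under 0.1% of UMIs, the first side had 548, 638, 578 and 610 CPM and the second 34.9, 44.9, 16.2 and 23.2 CPM.

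**Figure D3:**
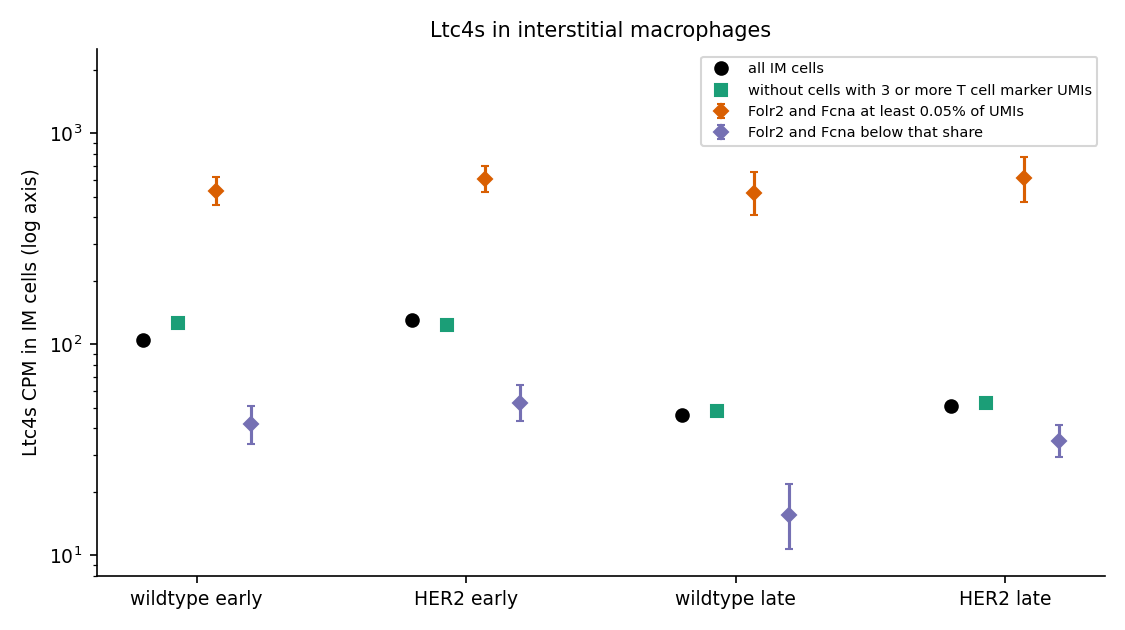
Ltc4s CPM (log axis) in all IM cells, in IM cells without those of 3 or more T cell marker UMIs, and on either side of the Folr2 and Fcna split (with 95% counting intervals), by library. The Folr2 and Fcna side lies between 522 and 610 CPM, and the late libraries lie below the early ones over all IM cells.

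Other sorted cells carried the members in part. Alox5ap reached 552 CPM in 78 cells with dendritic cell markers (95% counting interval 500.3 to 607) and 502 CPM in 66 cells with monocyte markers (424 to 589). Within libraries the dendritic values were 624, 589, 365 and 576 CPM and the monocyte values 515, 534, 487 and 480 CPM. In 243 cells with T cell markers 44 Alox5ap UMIs were counted, 43 of them in wildtype early. Intervals of pools cover counting error and not the spread between libraries. Ptgs1 had 17.7, 49.0, 19.1 and 67.8 CPM in 288 cells with endothelial markers, from 7, 35, 8 and 39 UMIs, and 0 UMIs in the dendritic pool. Differences between libraries in these few endothelial UMIs were not tested, nor set against the share over all genes. The richest single cell outside the macrophage classes held 3, 11, 2 and 8 Ptgs1 UMIs. Ptgs2 gave 10 UMIs in the endothelial pool, 8 of them in HER2 late, and 7 in 41 cells with epithelial markers, 6 of them in wildtype late. Alox5, at 0.475 CPM in endothelial cells and 10.4 CPM in dendritic cells, was below its level in both macrophage classes.

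Genotype was compared within each stage and stage within each genotype, with 1 library on each side, so these folds have no replicate check and no test. A gene was counted as differing where CPM differed at least 1.3-fold among genes with a mean of at least 10 CPM in AM cells or 50 CPM in IM cells. Of the 7 members, 6 passed this minimum in every AM comparison, Ptgs2 being the exception, and 4 or 5 did in IM cells, without Ptgs2, Lta4h and, at the late stage, Ltc4s. Both comparisons that hold wildtype late share that library, and neighbouring comparisons share the others too.

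In AM cells at the early stage the leukotriene genes were at nearly the same level in both genotypes. Ltc4s differed by 0.01 (counting interval -0.03 to 0.05) on the log2 scale, Alox5ap by -0.02 (-0.07 to 0.02) and Alox5 by 0.01 (-0.09 to 0.11). Lta4h had 21.6 CPM in wildtype early and 23.5 CPM in HER2 early, and Ptgs1 had 25.5 and 26.3 CPM. Hpgds alone passed 1.3-fold, at 11.9 CPM in HER2 early and 8.49 CPM in wildtype early (log2 0.48, 0.20 to 0.77). That is 1 of 6 members, against 1.26% of 7064 genes, and its CPM lie on either side of the minimum of 10. The members' median was 0.03 and that of all genes -0.03.

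In AM cells at the late stage 3 of 6 members passed 1.3-fold, against 23.2% of 7212 genes. Ltc4s was 1.54-fold higher in HER2 late (415 against 269 CPM, log2 0.62, counting interval 0.58 to 0.67). Lta4h was lower, at 23.1 against 34.2 CPM (log2 -0.57, -0.72 to -0.41), and Hpgds was lower, at 13.5 against 18.9 CPM (log2 -0.48, -0.69 to -0.27). Alox5 (79.7 against 92.8 CPM), Alox5ap (326 against 321 CPM) and Ptgs1 (23.5 against 25.8 CPM) did not pass. All genes had a median of -0.20 here and the members one of -0.18. Relative to the median of all genes, Ltc4s was at 0.83, Lta4h at -0.36 and Hpgds at -0.28, so that Ltc4s alone passed the step. By that measure 12.8% of all genes passed. In the authors' deposited table of AM averages, scaled to 10000, Ltc4s stood at 3.74 in HER2 late and 2.57 in wildtype late, and Hpgds at 0.113 and 0.156. Hpgds was lower in HER2 late among AM cells with no C1q UMI (11.2 against 18.6 CPM, from 259 and 361 UMIs). The 734 and 347 AM cells with at least 1 gave 25.9 against 21.6 CPM, from 114 and 46 UMIs. No interval was computed for this split, so no direction is read from the cells with C1q UMIs.

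Between the stages, wildtype AM cells gave 3 of 6 members past 1.3-fold, against 26.1% of 7249 genes. Ltc4s was 1.70-fold lower at the late stage (log2 -0.76, counting interval -0.81 to -0.72). Lta4h was 1.58-fold higher (0.66, 0.50 to 0.83) and Hpgds 2.22-fold higher (1.15, 0.90 to 1.41). All 3 also passed relative to the median of all genes, which was 0.16, as did 19.6% of all genes. In HER2 AM cells 0 of 6 members passed, against 2.29% of 7039 genes, with Ltc4s at -0.15 (-0.19 to -0.11) and Hpgds at 0.19 (-0.05 to 0.44). Of the 4 libraries, wildtype late was lowest for Ltc4s and highest for Alox5, Lta4h and Hpgds in AM cells.

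Taking all 4 libraries together, with a stage term for genotype and a genotype term for stage, leaves 1 residual degree of freedom. In AM cells 0 of 6 members tested passed for genotype in edgeR, where 0.0254% of 11788 genes did. Before adjustment 1 member was under 0.05 (Ltc4s, log2 0.43, SE 0.19, edgeR adjusted p = 0.98), as were 488 of the 11788 genes. DESeq2 called 0 members. For stage 0 of 6 passed in edgeR, against 1.21% of genes. Before adjustment 2 were under 0.05, Hpgds (log2 0.60, SE 0.18, edgeR adjusted p = 0.17) and Ltc4s (log2 -0.53, SE 0.19, edgeR adjusted p = 0.26). So were 1462 of the 11788 genes, and DESeq2 called 0 members. Hpgds passed with library totals in place of TMM (edgeR adjusted p = 0.018) and with no filter on low counts (0.0020). Of all genes 2.55% and 2.74% passed under these settings.

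**Figure D4:**
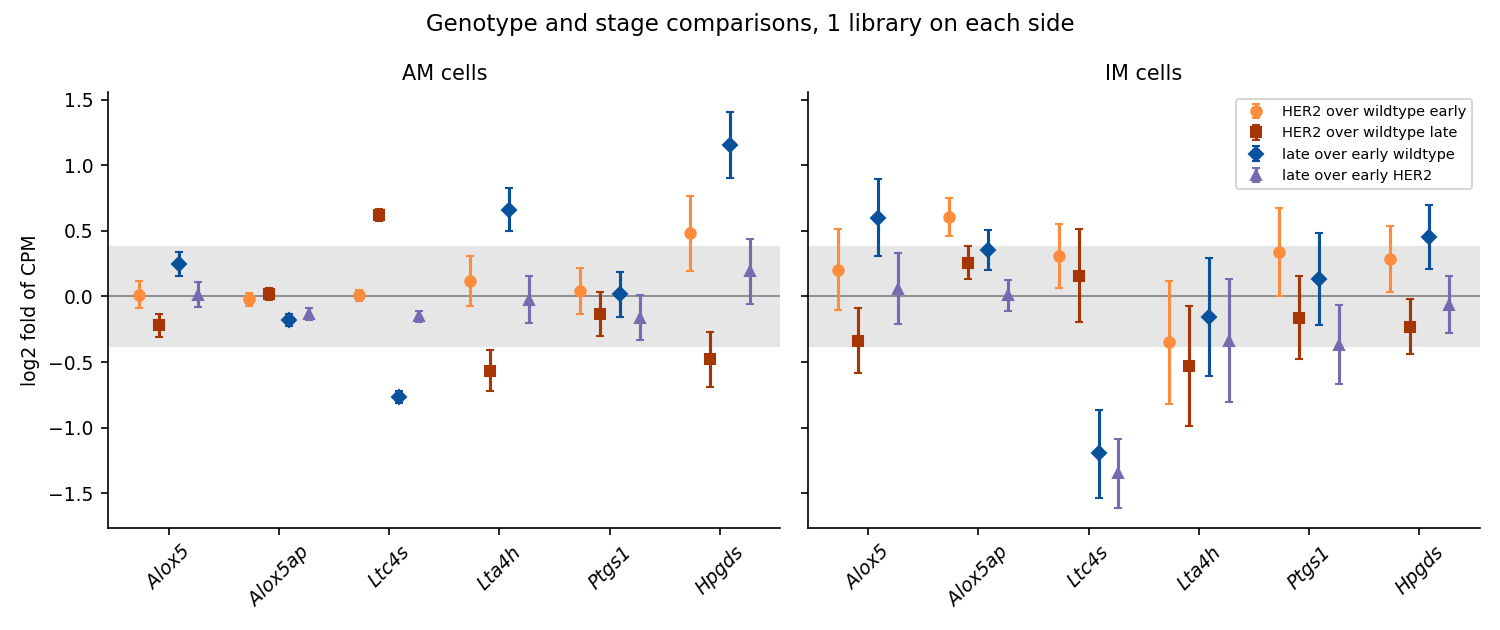
log2 fold of CPM for 6 genes in AM and IM cells, in the 4 comparisons of single libraries, with 95% counting intervals. The grey band marks folds under 1.3. Ltc4s lies below the band for both stage comparisons in IM cells, and in AM cells for wildtype only.

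In IM cells Ltc4s fell with stage. It went from 105 to 45.9 CPM in wildtype (2.29-fold lower, log2 -1.20, counting interval -1.54 to -0.86) and from 130 to 51.2 CPM in HER2 mice (2.54-fold lower, log2 -1.35, -1.61 to -1.08). Both late libraries lay below both early ones. The fit over 4 libraries gave a log2 change of -1.21 (SE 0.19, edgeR adjusted p = 0.040), and it was the 1 of 6 members past the threshold, where 0.499% of 10211 genes passed. DESeq2 gave -1.22 with an adjusted p of 0.063. Without cells of 3 or more T cell marker UMIs the levels were 126, 123, 48.0 and 52.4 CPM, and the change was -1.33 (edgeR adjusted p = 0.0020). The Folr2 and Fcna side, which is high in Ltc4s, held 37 of 330, 54 of 455, 40 of 633 and 19 of 661 IM cells. Its part in the change was not tested. Its own Ltc4s level was similar at both stages, at 533 and 606 CPM early and 522 and 610 CPM late. The other IM cells had 41.7 and 52.7 CPM early and 15.5 and 34.9 CPM late. Free RNA, not subtracted from these values, would give 10.4 and 6.28 CPM early and 10.8 and 15.9 CPM late over all IM cells. The low late values are therefore uncertain.

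The other members in IM cells varied less or differed with the cells counted. Of 5 members past the minimum in wildtype, Alox5 (68.1 to 103 CPM, log2 0.60, counting interval 0.31 to 0.90) and Hpgds (102 to 140 CPM, log2 0.45, 0.21 to 0.70) were higher at the late stage and Ltc4s lower, against 38.9% of 3017 genes. Without cells of 3 or more T cell marker UMIs Hpgds was at 0.27, under the 1.3-fold step, with 119 CPM early and 144 late. In HER2 mice Ltc4s was the 1 of 5 past 1.3-fold, against 8.97% of 2732 genes. At the early stage Alox5ap was 1.52-fold higher in HER2 IM cells (400 against 263 CPM, log2 0.61, 0.46 to 0.75), 1 of 5 members against 21.8% of 2903 genes. Without cells of 3 or more T cell marker UMIs its difference was 0.44, with 413 against 305 CPM, and those of Alox5, Ltc4s, Ptgs1 and Hpgds lay between -0.03 and 0.08. At the late stage 0 of 4 members passed, against 24.6% of 2813 genes, and Alox5ap was at 402 in HER2 and 337 CPM in wildtype (log2 0.26, 0.13 to 0.38). The genotype fit in IM cells called 0 of 6 members in edgeR, against 0.206% of genes, and DESeq2 called 0. Before adjustment 1 was under 0.05, Alox5ap (log2 0.56, SE 0.20, edgeR adjusted p = 0.83), as were 539 of 10211 genes.

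Around the members, 62 of 64 listed genes of the wider pathway were present in the files, and 44 of these were tested between the classes. In edgeR 19 were higher and 15 lower in AM cells, with a median of 0.21. The counts here and in the role groups below stand beside 31.1% of all genes higher and 32.7% lower. Of 10 tested genes of arachidonate release and handling, 4 were higher and 4 lower. Pla2g15, a lysosomal phospholipase, was higher in AM cells (188 to 213 against 81.0 to 112 CPM, log2 1.43, SE 0.10). Pla2g7, which hydrolyses platelet-activating factor, was lower (19.6 to 29.1 against 195 to 249 CPM, log2 -2.94, SE 0.09). Lpcat2 (log2 -1.23, SE 0.11), which makes platelet-activating factor, and the secreted phospholipase Pla2g2d (log2 -3.85, SE 0.52) were lower as well. All 4 passed in edgeR, with adjusted p from 5.8e-09 to 1.2e-04.

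Of 12 other synthases tested, 9 were higher in AM cells and 2 lower, where 31.1% and 32.7% of all genes were, with 1 call, Cbr1, lost without TMM scaling. Mgst1, a microsomal glutathione transferase related to Ltc4s, had 539 to 594 CPM in AM cells and 19.0 to 36.2 in IM cells (log2 4.63, SE 0.13, edgeR adjusted p = 5.1e-09). Akr1b3, an aldose reductase, was at 591 to 667 against 137 to 168 CPM (log2 2.32, SE 0.08). Gpx4, which reduces lipid peroxides, was at 555 to 619 against 239 to 245 CPM (log2 1.57, SE 0.08). Ptges3, named as a cytosolic prostaglandin E synthase, was at 213 to 228 against 138 to 192 CPM (log2 0.72, SE 0.09). All of them passed, with edgeR adjusted p from 1.3e-08 to 7.8e-05 for the last 3.

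For the processing and export of peptide leukotrienes, 1 of 5 tested genes was higher in AM cells and 3 lower. The exporter Abcc1 was lower (11.2 to 19.1 against 25.8 to 34.9 CPM, log2 -0.71, SE 0.11, edgeR adjusted p = 2.4e-04). Ggt5, which removes glutamate from leukotriene C4, was lower (log2 -0.71, SE 0.15, edgeR adjusted p = 0.0022), and the exporter Abcc4 was higher (log2 0.82, SE 0.20, edgeR adjusted p = 0.0045). The dipeptidase Dpep2 was at 17.0 to 25.1 against 15.7 to 36.2 CPM (log2 0.00, SE 0.22, edgeR adjusted p = 1.00).

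Of 10 receptors tested, 3 were higher and 5 lower in AM cells, a count near the share over all genes. Fpr2, a formyl peptide and lipoxin receptor, had 326 to 486 CPM in AM cells against 14.1 to 17.8 in IM cells (log2 4.80, SE 0.12). The nuclear receptor Pparg had 97.5 to 124 against 8.20 to 20.8 CPM (log2 3.37, SE 0.18). Cysltr1, the receptor of peptide leukotrienes, was lower in AM cells (4.81 to 6.17 against 52.0 to 66.7 CPM, log2 -3.25, SE 0.11), as was the chemerin receptor Cmklr1 (log2 -6.23, SE 0.17). All 4 passed, with edgeR adjusted p from 4.1e-09 to 1.6e-07. Summed over whole classes, Ltc4s and Cysltr1 had their higher CPM in different classes. The Folr2 and Fcna side of IM cells was high in Ltc4s, however, at 522 to 610 CPM, and Cysltr1 was not read by side.

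Among genes of inactivation 2 of 7 tested were higher and 1 lower with TMM scaling, and 1 higher and 2 lower without it. Hpgd, which starts the breakdown of prostaglandins, was lower in AM cells (4.45 to 6.82 against 95.6 to 171 CPM, log2 -4.37, SE 0.22, edgeR adjusted p = 9.1e-08). Cyp4f16, of a family that oxidises leukotriene B4, was higher (44.2 to 55.2 against 10.5 to 19.4 CPM, log2 1.92, SE 0.13, edgeR adjusted p = 9.4e-07). Cyp4f13 (log2 0.12, edgeR adjusted p = 0.34) and Ptgr2 (log2 -0.28, edgeR adjusted p = 0.15) did not pass, though Ptgr2 did without TMM scaling.

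**Figure D5:**
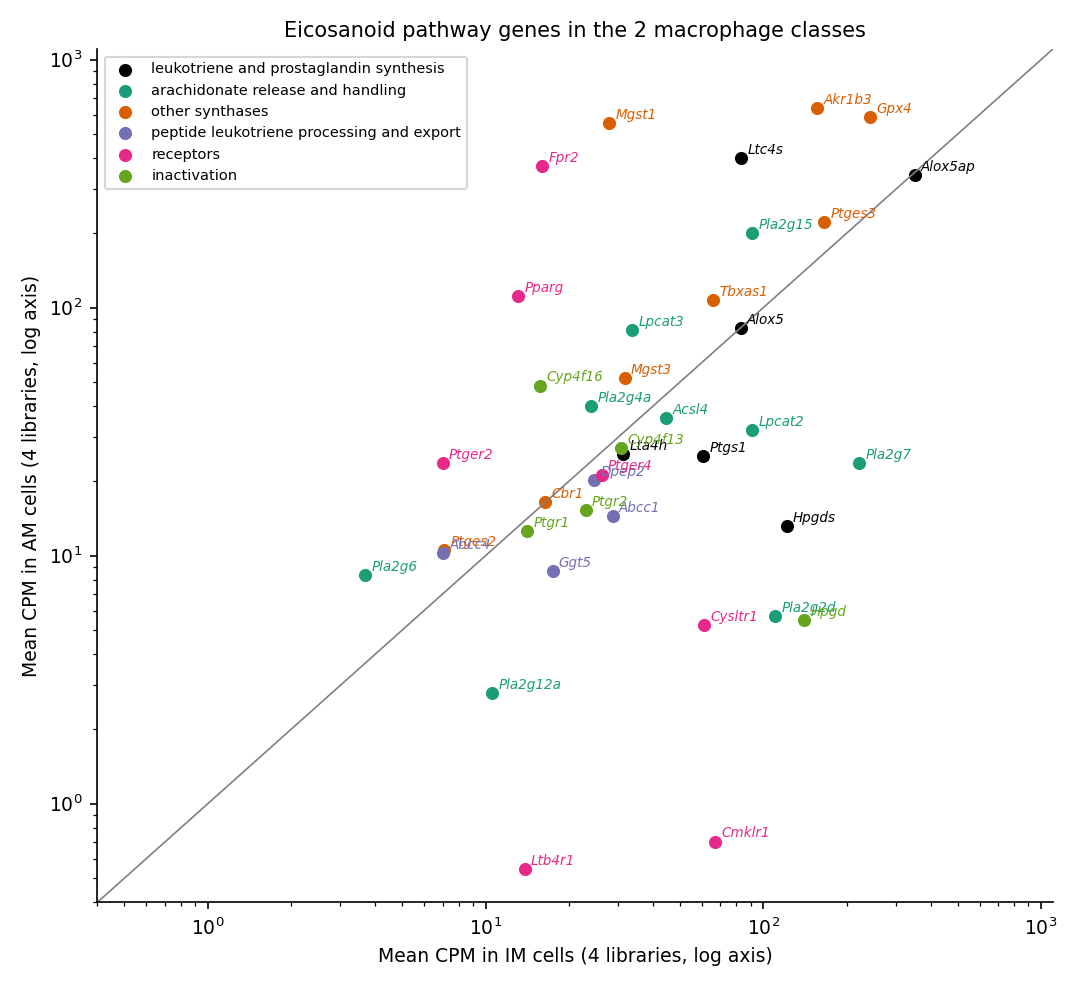
Mean CPM over 4 libraries in AM cells against IM cells (log axes) for pathway genes with a mean of at least 5 CPM over both classes, coloured by role, with the line of equality. Ltc4s, Mgst1, Fpr2 and Pparg lie on the AM side, and Hpgds, Hpgd, Pla2g7 and Cysltr1 on the IM side.

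In the fits over 4 libraries 1 other pathway gene passed for stage in each class, Pla2g2d in both. That is 1 of 39 tested in AM and 1 of 35 in IM cells, where 1.21% and 0.499% of all genes passed. Pla2g2d was higher late in AM cells (log2 1.43, SE 0.25, edgeR adjusted p = 0.017) and lower late in IM cells (log2 -1.50, SE 0.20, edgeR adjusted p = 0.020). Its AM level was low, at 2.67, 3.13, 11.4 and 5.66 CPM, beside 217, 114, 65.8 and 43.5 CPM in IM cells. For genotype 0 of 39 tested genes passed in AM cells and 0 of 35 in IM cells in edgeR.

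Between single libraries, 24 or 25 of the other pathway genes passed the minimum in AM cells. At the early stage Dpep2 was lower in HER2 (17.2 against 25.1 CPM). At the late stage 1 was higher in HER2, the glutathione transferase Mgst3 (50.6 against 32.0 CPM), and 6 of 24 were lower, near the 19.8% of all genes that were. Those were the cytosolic phospholipase Pla2g4a, the arachidonate ligase Acsl4, Abcc1, Abcc4, the prostaglandin E receptor Ptger2 and Fpr2, of which Acsl4 (log2 -0.66) passed relative to the median of all genes. From early to late in wildtype 7 of 25 were higher and 2 lower, where 20.3% and 5.78% of all genes were. Acsl4 (0.78), Abcc1 (0.77), Fpr2 (0.58), Abcc4 (0.57), Pla2g7 (0.57), Pla2g4a (0.50) and the receptor Ptger4 (0.43) lay above the step on the log2 scale, and Mgst3 (-1.05) and Cbr1 (-0.41) lay below it. In HER2 mice 0 of 24 passed between the stages. The medians of these genes, 0.03, -0.22, 0.23 and -0.01, lay near those of all genes, -0.03, -0.20, 0.16 and -0.01.

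In IM cells 11 or 12 of them passed the minimum. HER2 was higher early in Tbxas1, the thromboxane synthase (81.1 against 52.8 CPM), and in Hpgd (149 against 95.6 CPM). Pla2g2d was lower in HER2 early (114 against 217 CPM) and late (43.5 against 65.8 CPM), and Pla2g15 and Acsl4 were lower in HER2 late (log2 -0.47 and -0.91). From early to late in wildtype Pla2g15, Acsl4, Cmklr1 and Hpgd were higher (log2 0.46, 0.77, 0.65 and 0.59) and Pla2g2d and Ptges3 lower (log2 -1.72 and -0.47). In HER2 mice Pla2g2d alone passed (log2 -1.40). Of all genes 21.8% passed either way between the genotypes early and 24.6% late. Between the stages 38.9% passed in wildtype and 8.97% in HER2 mice. Of the IM cells of wildtype early, 128 of 330 carried T cell markers. Values without such cells are not given for these pathway genes. The part of such cells in the early genotype folds and the wildtype stage folds was not tested.

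Genes often induced together with Ptgs2 were measurable where Ptgs2 was not. In AM cells Cxcl2 had 25.4 to 36.9 CPM, Ccl3 17.0 to 25.8, Il1b 12.8 to 15.7, Osm 16.0 to 26.0, Nfkbia 106 to 161, Egr1 50.6 to 83.5 and Fos 211 to 295, with Ccl4 at 5.82 to 9, Tnf at 3.41 to 5.77 and Cxcl3 at 1.23 to 2.90. Between the classes 6 of these 10 were lower in AM cells in edgeR, where 32.7% of all genes were, namely Il1b (log2 -2.90), Ccl4 (-1.23), Tnf (-0.83), Cxcl2 (-0.65), Nfkbia (-0.52) and Fos (-0.44), and Osm (1.26) and Cxcl3 (3.64) were higher. Ccl3 (0.27, edgeR adjusted p = 0.42) and Egr1 (0.14, edgeR adjusted p = 0.32) did not pass. In AM cells Nfkbia and Egr1 were lower in HER2 early (log2 -0.53 each), and Cxcl2 (0.54) and Osm (0.59) were higher and Fos (-0.40) lower in HER2 late. Between the stages Ccl3 (0.55) was higher and Nfkbia (-0.40) lower late in wildtype AM cells, and Cxcl2 (0.45), Ccl3 (0.49), Osm (0.70) and Egr1 (0.64) were higher late in HER2 AM cells. These are 4 of 7 past the minimum in HER2 AM cells, against 2.29% of all genes. The Ptgs2 counts of 0 to 3 UMIs in AM cells allow no such comparison.

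In IM cells 5 of the 10 passed the minimum. Cxcl2, a neutrophil attractant, passed the step in all 4 comparisons of single libraries, which rest on the same 4 values. It had 88.3, 42.7, 37.1 and 67.0 CPM, so that HER2 was lower early (log2 -1.05) and higher late (0.85), and late was lower in wildtype (-1.25) and higher in HER2 mice (0.65). Nfkbia was lower in HER2 early (-0.68) and late in wildtype (-0.76), Fos was higher in HER2 late (0.41), and Il1b was higher late in both genotypes (0.71 and 0.73). Neutrophil markers in IM cells summed to 21.8, 15.5, 188 and 108 CPM beside these, and their part was not tested. The part of the cells with T cell markers in wildtype early was not tested either.

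The genes whose levels followed each member most closely were found over 12 sums, 3 cell classes in each of 4 libraries, among 8498 genes with a mean of at least 10 CPM. The measure was Pearson's r of log2(CPM + 1), given as a description, since the classes drive it and the sums share libraries and totals. Ltc4s was nearest to the transcription factor Cebpb (0.984), Mpp1 (0.980) and Rnf149 (0.978). Hpgds was nearest to Adap2 (0.985), Pla2g7 (0.984) and Adap2os (0.984), Alox5 to Gm10134 (0.996), Pira2 (0.993) and the complement receptor C5ar1 (0.993), and Alox5ap to Arhgap39 (0.983), Fuca1 (0.974) and Fxyd5 (0.970). Ptgs1 was nearest to Cmtm3 (0.948), Rnf130 (0.928) and Cyfip1 (0.928), and Lta4h was close to Nup98 (0.905) and Rbm25 (0.899). Ptgs2 did not reach the minimum.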

How the data were processed

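UMI counts per gene and barcode were deposited by the authors for unfiltered barcodes of 4 libraries. Per the submitters' processing notes reads were aligned with Cell Ranger 5.0.1 to mm10, whereas version 4 of it stands in the count files, per the file headers. The authors also deposited an average signal per gene over AM cells for each group, scaled to 10000, whose making was not given in the sources used here. The 7 genes, the pathway lists and the alternatives were chosen with earlier results of these data known.

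Cells and classes were set as given above, no doublet caller was run, and UMIs were summed per library and class and scaled to CPM. Single libraries were compared by the ratio of CPM with an exact conditional binomial 95% interval. For replicated contrasts edgeR 4.0.16 (quasi-likelihood, TMM, filterByExpr, Benjamini-Hochberg over all genes) was run on the sums, with DESeq2 1.42.0 as an alternative. The class fit has 3 residual degrees of freedom, and the library block pairs the 2 classes of the same library. The scripts were tested on simulated data. All 7 members were named in every comparison. Of the pathway lists, genes past the 1.3-fold step were named, or, between the classes, the 4 of each role with the highest mean CPM, and all of the Ptgs2 companions. The 3 nearest genes were named for each member, except for 1 item that is not reported here. Sequences are RefSeq's, and copies were searched with BLAST 2.17.0.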

Additional observations from a re-analysis of the deposited data

Results flagged for a closer look

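Hpgds differed in opposite directions between the genotypes at the 2 stages. In AM cells it was higher in HER2 early than in wildtype early (log2 0.48, 95% counting interval 0.20 to 0.77) and lower in HER2 late than in wildtype late (log2 -0.48, -0.69 to -0.27). In IM cells the differences were 0.28 (0.04 to 0.53) early and -0.23 (-0.44 to -0.02) late. With 1 library per group the difference between the stages was not tested. The early AM value rests on a gene at the minimum of 10 CPM, with 8.49 CPM in wildtype and 11.9 in HER2, and it was 0.21 at no more than 5% mitochondrial UMIs. The late AM value was -0.28 relative to the median of all genes, under the 1.3-fold step. Without cells of 3 or more T cell marker UMIs, the IM values were 0.08 and -0.26. Among AM cells with no C1q UMI Hpgds was lower in HER2 late than in wildtype late (11.2 against 18.6 CPM). Among those with at least 1 it stood at 25.9 against 21.6 CPM, from only 114 and 46 UMIs and with no interval computed.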

How the results depend on the processing

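Member folds were recomputed in 669 alternatives, of which 614 stayed within the counting interval, 55 moved outside it and 0 turned a called direction. Of 179 alternatives for member tests 168 kept their side of the threshold. Between the classes Alox5 turned to -6.51e-05 with library totals in place of TMM, and the count of 5 members became 3 with no replicate block, where Ptgs2 was not tested and Alox5 lost its call. Leaving out each library gave 4 to 5 members. Of all genes, 60.3% passed with no block and 55.1 to 64.3% with a library left out. Ltc4s, Hpgds, Ptgs1 and Ptgs2 passed each time. In AM cells the stage fit called 1 member in place of 0 with no filter on low counts or without TMM. The share of all genes also rose there, from 1.21% to 2.74% and 2.55%. In IM cells DESeq2 called 0 in place of 1, where 0.382% of genes passed in place of 0.499%. The early AM count of 1 became 0 at 5% mitochondrial UMIs (Hpgds at 0.21), and, where Hpgds fell under the CPM minimum, with thinning, equal cell weights, the authors' averages, no cells passing both class rules, or no richest cells. The late AM count of 3 became 1 with TMM or relative to the median, and by the latter 12.8% of all genes passed in place of 23.2%. HER2 between stages in AM cells went from 0 to 1 at 5% mitochondrial UMIs or with no CPM minimum. In IM cells the early count of 1 became 4 with TMM or thinning, 3 without the richest cells, and 2 at 5% mitochondrial UMIs, with equal weights, relative to the median or with free RNA subtracted. The late count of 0 became 1 with TMM, at 2000 UMIs, with thinning or without T cell marker cells, and 2 at 5% mitochondrial UMIs or with no CPM minimum. HER2 between stages went from 1 to 2 at 5% mitochondrial UMIs, without cells passing both class rules or without T cell marker cells. Except where the minimum is named, the cause was not tested. For the other fold alternatives the share of all genes is not given, so a changed count is not read as a result about the members. The alternatives without T cell marker cells and with the authors' averages across stages were chosen after seeing the data. The genotype and stage fits could not be repeated without a library, as no residual degree of freedom remains. Depth limits Ptgs2, with at most 9 UMIs per library and class.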
